A study of Homo sapiens with 24 samples.

Results

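The loss of existing mRNA over 8 h was followed in U2OS cells whose only added form of QKI7 lacks the KH domain. The 6 libraries titled sgQKI+QKI7-△KH, of 24 in the series, gave 2 replicates at each of 0, 4 and 8 h. All 12547 endogenous genes of the 12585 table rows were compared, and the remaining 38 rows were ERCC spike-in RNAs. U2OS is a human osteosarcoma line, and the measured material was polyA RNA. Cells of all 12 groups of the series received actinomycin D (5 µg/mL), which stops transcription, together with sodium arsenite (200 µM), an oxidative stressor that drives mRNAs into stress granules, and 0 h is the start of that treatment. sgQKI cells carry a guide against QKI. They were given an empty vector (sgQKI+EV), intact QKI7 (sgQKI+QKI7-WT) or QKI7 without the KH domain (sgQKI+QKI7-△KH), and sgNS+EV cells carry the guide labelled sgNS with the empty vector. The polyA libraries were made with a stranded kit. The labels do not say whether a line is 1 clone, what drives the added cDNA, or whether replicates were separate cultures, so the p-values measure only the spread between these libraries.

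QKI is a STAR-family RNA-binding protein. Its KH domain reads short ACUAAY-type sequences in RNA, and its isoforms differ at the C-terminus, with QKI7 being cytoplasmic. Once transcription is blocked, the fall of an mRNA reflects its decay. The classic labile mRNAs encode immediate-early and signalling regulators and often carry AU-rich elements in the 3′ UTR, whereas mRNAs for ribosomal proteins and metabolic enzymes are long-lived.

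The sequences below show examples of 2 elements searched for in the mRNAs described here, in 6 mRNAs with large falls and in QKI itself, from the GENCODE 29 transcript chosen for each gene on GRCh38. Capitals mark either the AU-rich heptamer TATTTAT or a QKI response element core, ACTAAC or ACTAAT, and the letters around them are the flanking 3′ UTR. Only the mRNA strand of the 3′ UTR was searched. Of 11573 genes with such a transcript, 33.0% held the heptamer and 34.6% a core, so a match is common and is no evidence of a bound site.
CYR61 heptamer, chr1:85583559-85583587, plus strand: actgaatgtttTATTTATcaaaatgtagc
NFKBIA heptamer, chr14:35401699-35401727, minus strand: accacattttaTATTTATtgtgcttcgag
ID2 heptamer, chr2:8683875-8683903, plus strand: gtgatattcgtTATTTATgaaaaagactt
IER3 heptamer, chr6:30743601-30743629, minus strand: tgtgtacgtaaTATTTATtttaacttatg
ANKRD1 heptamer, chr10:90912644-90912672, minus strand: gtattcctgttTATTTATttactgccacg
CDKN1B heptamer, chr12:12722126-12722154, plus strand: ttatactaactTATTTATgttaaaagatt
CDKN1B core, chr12:12722119-12722146, plus strand: tgaaaaattatACTAACttatttatgtt
QKI core, chr6:163573785-163573812, plus strand: aataccaacctACTAACtctggactttg
The 2 CDKN1B windows overlap, because the core and the heptamer lie side by side in that 3′ UTR. The transcript chosen for QKI held 5 cores, and other QKI isoforms and the added QKI7 cDNA were not searched.

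The QKI row was read first, since the guide targets this gene. QKI (chr6:163414000-163578596, plus strand) had a signal of 47.6 and 50.2 at 0 h, 24.7 and 22.6 at 4 h, and 17.8 and 19.1 at 8 h. The 3 times did not overlap. The signal at 0 h was 48.9 ± 1.85 (SD, n = 2), against 34.3 ± 2.35 in sgQKI+EV, 53.4 ± 10.0 in sgQKI+QKI7-WT and 54.1 ± 8.34 in sgNS+EV. The table does not separate endogenous QKI mRNA from the added cDNA, so this row does not measure either alone. QKI fell by 1.36 on the log2 scale over 8 h (SE 0.14, adjusted p = 1.7e-08).

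Of the mesenchymal markers 7 were measured, with a summed signal of 5916 to 6413 at 0 h, and VIM, an intermediate filament of mesenchymal cells, reached 4135 and 3814. Of the blood, epithelial, hepatic, endothelial and neural markers only EPCAM and RBFOX3 had a row, with a summed signal of 14.8 to 16.3 at 0 h, and the other members of that list were not analysed here. Across the series the spike-in rows summed to 11485 to 11940, and the endogenous rows to 690431 to 1367860. In sgQKI+QKI7-△KH cells the endogenous sum without ribosomal RNA started at 1173120 ± 54107 (SD, n = 2). It was 992072 ± 24137 after 4 h, 84.6% of the start, and 800362 ± 29397 after 8 h, 68.2% of the start. Replicate 1 at 0 h held more ribosomal RNA than replicate 2, at 11.4% against 5.90% of its signal. Because the measurement is of bulk RNA, fewer cells of a type and less RNA per cell cannot be told apart.

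Over 8 h most of the measured transcriptome fell. The values are the deposited spike-in scaled signals, and changes were tested with limma on log2(signal + 1), with Benjamini-Hochberg adjusted p under 0.05 as the threshold. A change passed for 91.1% of genes: 11371 were lower (90.6%) and 61 higher (0.486%), the latter 33 without 0 h replicate 2. The median change was −0.77 on the log2 scale, which leaves a fraction of 0.588, and the interquartile range ran from −1.09 to −0.49. A rise of at least 2-fold was called for 31 genes (0.247%) and a fall of at least 2-fold for 3859 (30.8%), of at least 4-fold for 343, of at least 8-fold for 47 and of at least 16-fold for 10. Under exponential loss the half-life of the genes that fell had a median of 9.76 h, with the 5th percentile at 4.54 h and the 95th at 24.9 h. The split of directions depends on the spike-in scaling. Scaling to library totals gave 1453 higher and 6611 lower genes with a median of −0.26, and quantile normalisation gave 4291 higher and 3586 lower with a median of 0.05. The changes below are best read relative to the median of all genes.

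The mRNAs lost most were CYR61, ID1, RPL22L1, CTGF, NFKBIA, ID2, SERTAD3, IER3, IER5, AMD1, EFNA4 and CDKN1B. They encode secreted matricellular proteins, helix-loop-helix inhibitors, feedback regulators of NF-κB and growth-factor signalling, the polyamine enzyme AMD1, the cyclin-dependent kinase inhibitor CDKN1B and a ribosomal protein paralog. CYR61, a YAP target encoding a secreted matricellular protein, had signals of 310.8 and 296.7 at 0 h, 7.96 and 7.22 at 4 h, and 5.84 and 6.22 at 8 h. The 0 h libraries stood far above all others, while the later change, −0.29, was small. CYR61 (chr1:85580761-85583962, plus strand) fell by 5.44 (SE 0.09, adjusted p = 2.7e-21), with 1.98% left, the largest fall among genes with a mean signal of at least 5.

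ID1, an inhibitor of helix-loop-helix transcription factors induced by BMP signalling, went from 1161 and 1029 at 0 h to 45.3 and 45.1 at 4 h, and to 27.0 and 29.8 at 8 h. Its paralog ID2 went from 85.4 and 82.5 to 3.52 and 3.36, and then to 1.16 and 2.89. NFKBIA, which encodes the inhibitor that holds NF-κB in the cytoplasm, went from 104 and 93.9 to 3.73 and 2.98, and then to 1.90 and 2.63. These genes lost between 87.3% and 91.5% of their log2 fall in the first 4 h.

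CTGF (chr6:131948176-131951373, minus strand), the close relative of CYR61 and also a YAP target, had another time course. It had signals of 279 and 269 at 0 h, 52.0 and 54.1 at 4 h, and 7.36 and 7.36 at 8 h. Each time lay well apart from the next, and the fall over 8 h was 5.04 (SE 0.08, adjusted p = 2.0e-21), with 46.5% of it by 4 h. Its half-life was 1.59 h over the 8 h (95% interval 1.54 to 1.64) and 1.71 h over the first 4 h (1.59 to 1.83). For CYR61 the half-life was 1.47 h over the 8 h (1.42 to 1.52) and 0.78 h over the first 4 h (0.75 to 0.81). At 8 h 1.98% of CYR61 and 2.69% of CTGF were left.

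RPL22L1, a paralog of the ribosomal protein RPL22, stood apart from its family. It went from 167 and 152 at 0 h to 13.1 and 11.2 at 4 h, and to 3.73 and 3.98 at 8 h, a change of −5.05 (SE 0.10, adjusted p = 7.3e-20). CDKN1B, an inhibitor of cyclin-dependent kinases and a known QKI-bound mRNA, went from 57.8 and 58.5 to 4.35 and 4.80, and then to 2.47 and 3.14, a fall of 3.96 (SE 0.14, adjusted p = 1.1e-15). Its 0 h libraries were separate from all later ones.

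**Figure D1:**
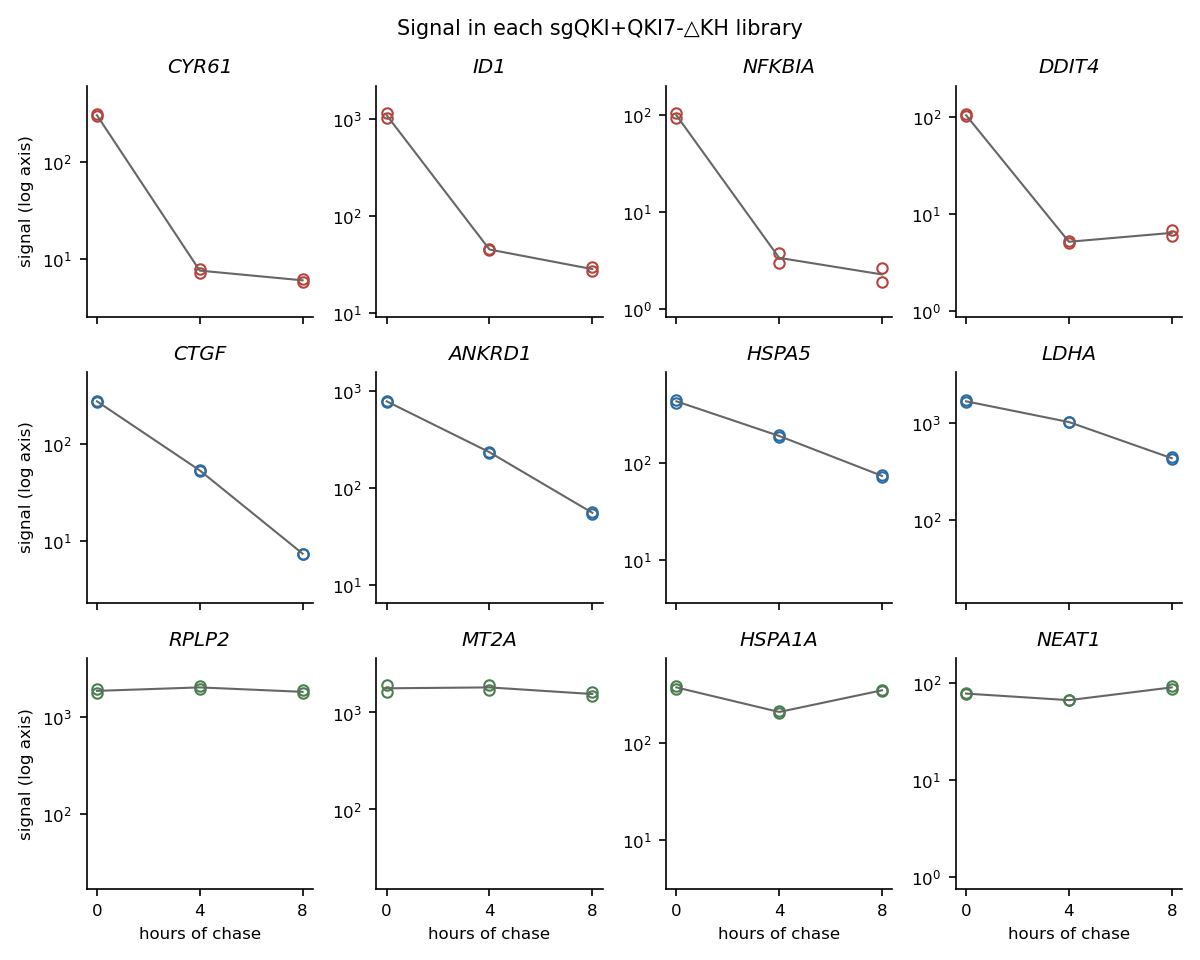
Signal (vertical log axis, each panel covering the same span of folds) against hours of chase for 12 genes; open circles are single sgQKI+QKI7-△KH libraries (2 per time) and lines join the means. The top row makes most of its drop by 4 h and changes less after it, and the middle row keeps falling to 8 h. The bottom row stays within a narrow range or, for HSPA1A and NEAT1, is lower at 4 h than at 8 h.

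The lists were ranked by their median change over 8 h, to be read against −0.77 over all genes and against 90.6% of genes lower and 30.8% lower by at least 2-fold. All 39 measured immediate-early and AU-rich labile mRNAs fell, 36 of them by at least 2-fold, with a median of −2.13. IER3, a stress-induced survival regulator, fell from 247 and 228 to 9.10 and 11.9, a change of −4.39. All 19 ID, HES and BMP or TGF-beta feedback genes fell, 16 by at least 2-fold (median −1.93). SMAD7, the inhibitory SMAD, changed by −3.13. HEY1, a Notch-responsive repressor, changed by −0.52, the least among the 16 members with a mean of at least 5. All 26 YAP and TAZ targets fell, 20 by at least 2-fold (median −1.51). The medians of these 3 lists stayed below 0 under both other scalings, as did those of p53 targets and mitotic genes. Several other lists did so too, such as ZNF genes (−0.58 with library totals and −0.17 after quantile normalisation) and stress granule genes (−0.31 and −0.28). HEY1 was 0.42 higher under quantile normalisation.

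YAP and TAZ are the transcriptional coactivators at the end of the Hippo pathway. ANKRD1, which encodes a titin-binding ankyrin repeat protein, had signals of 791 and 769 at 0 h, 229 and 237 at 4 h, and 53.7 and 57.0 at 8 h. Like CTGF, it fell by about the same amount in each interval, with 45.8% of the fall by 4 h. Its half-life was 2.11 h over 8 h (95% interval 2.02 to 2.20) and 2.30 h over the first 4 h (2.11 to 2.53).

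Of 34 p53 targets 31 fell, 19 by at least 2-fold (median −1.06). BBC3, which encodes the pro-apoptotic protein PUMA, fell by 2.95, BTG2, an anti-proliferative adaptor of the CCR4-NOT deadenylase, by 2.90, and GDF15, a secreted stress cytokine, by 2.60. BAX, the mitochondrial pore-forming apoptosis effector, read 177 and 160 at 0 h and 164 and 169 at 8 h. Its groups overlapped, and its change of −0.02 did not pass (adjusted p = 0.86). All 51 mitotic genes fell, 25 by at least 2-fold (median −0.99): CKS2, a cyclin-dependent kinase subunit, fell by 2.62, CCNF, a cyclin that is an F-box protein, by 2.05 and TTK, the spindle checkpoint kinase, by 2.01. All 56 replication and S-phase genes fell as well, 12 by at least 2-fold (median −0.78), led by CCNE2 (−2.07), cyclin E2, and GINS1 (−1.63), a subunit of the replicative helicase.

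Of 381 ZNF zinc finger genes 370 fell and 1 rose, and 210 fell by at least 2-fold (median −1.05). The members that fell most were ZNF830 (−3.0045), ZNF608 (−2.86) and ZNF217 (−2.59). This list had 5 exons in its median transcript, against 9 over all genes.

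mRNAs for the decay machinery lay near the bulk. Of 73 such genes 72 fell, 28 by at least 2-fold, 38.4% against 30.8% of all genes (median −0.86). PUM2, a protein that binds 3′ UTR elements and recruits deadenylases, changed by −2.75, and DDX6, a decapping-associated helicase, by −2.39. PUM2 read 79.7 and 81.4 at 0 h, 22.6 and 20.2 at 4 h, and 10.9 and 11.3 at 8 h, without overlap between any times. Of 49 stress granule genes 47 fell, 18 by at least 2-fold (median −0.86), and EIF4E, the cap-binding initiation factor, fell by 1.82 and G3BP2, a granule-nucleating protein, by 1.62. All 18 genes of the published QKI-linked list fell, 6 by at least 2-fold (median −0.87), led by CDKN1B and EIF4E, followed by the polarity kinase MARK2 (−1.29). Of 56 SR protein, hnRNP and splicing regulator genes 55 fell, 19 by at least 2-fold (median −0.81), with CLK1, a kinase of SR proteins, at −2.42 and MBNL1, a splicing factor, at −1.55. Of 57 RNA polymerase II and Mediator subunits 54 fell (median −0.87), of 24 m7G methyltransferase and cap factor genes 22 fell (median −0.85), and all 4 STAR-family genes fell (median −0.66). Of 27 snoRNA host genes 22 fell (median −0.56), and of 13 long non-coding RNAs 9 fell and 4 rose (median −0.56). The median of the decay list was −0.01 after quantile normalisation, that of the stress granule list −0.28.

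Stress and metabolic lists had medians near or above that of all genes, with a few members far below it. Of 43 ATF4 targets and tRNA synthetases 42 fell, 14 by at least 2-fold (median −0.55): DDIT4, the stress-induced mTORC1 inhibitor, changed by −3.84, SLC38A2, an amino acid transporter, by −3.40 and PPP1R15A, which recruits the phosphatase of eIF2α, by −2.75. Of 32 endoplasmic reticulum chaperone and unfolded protein response genes 29 fell, 8 by at least 2-fold (median −0.62): HSPA5, the main chaperone of the compartment, fell by 2.54, PPP1R15B by 2.49 and HERPUD1, a degradation component, by 2.14. Of 35 cholesterol and fatty acid synthesis genes 32 fell, 11 by at least 2-fold (median −0.77): INSIG1 and INSIG2, which retain SREBP, changed by −2.29 and −1.70. All 31 glycolysis and hypoxia genes fell, 9 by at least 2-fold (median −0.66), led by the glucose transporter SLC2A1 (−2.39), the lactate dehydrogenase subunit LDHA (−1.95) and the glucose transporter SLC2A3 (−1.89).

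Of 35 interferon-stimulated and antigen presentation genes 32 fell, 7 by at least 2-fold (median −0.71), with IFIT2 at −3.53 and IFIT3 at −2.74. Of 46 extracellular matrix genes 45 fell, 12 by at least 2-fold (median −0.71), with COL1A1, a chain of type I collagen, at −2.06 and THBS1, thrombospondin 1, at −1.95. Of 38 NRF2 and antioxidant genes 36 fell, 10 by at least 2-fold (median −0.59). KEAP1, the adaptor that directs NRF2 to degradation, fell by 1.66, whereas TXN, thioredoxin, changed by −0.19 (adjusted p = 0.018, and past the threshold neither without 8 h replicate 1 nor without 0 h replicate 2, at −0.17 in both). Of 4 metallothionein and zinc export genes 3 fell. SLC30A1, the zinc exporter, fell by 1.34. MT2A, a metallothionein, read 1928 and 1620 at 0 h and 1482 and 1616 at 8 h, and its change of −0.19 did not pass (adjusted p = 0.12), although without 0 h replicate 2 it did, at −0.32. The lower 0 h library and the higher 8 h library of MT2A were nearly equal.

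The long-lived end of the distribution held the translation and energy genes. Of 82 cytosolic ribosomal protein genes 56 fell, 2 by at least 2-fold; the median was −0.25, but 0.30 with library totals and 0.06 after quantile normalisation. RPLP2, an acidic stalk protein, read 1949 and 1781 at 0 h, 1952 and 2098 at 4 h, and 1755 and 1891 at 8 h, with overlapping groups and a change of −0.03 that did not pass (adjusted p = 0.73). Besides RPL22L1, only the paralog RPL7L1 (−1.37) fell by at least 2-fold. Of 80 nuclear-encoded respiratory chain genes 56 fell (median −0.30, but 0.24 and 0.29 with the other scalings), and NDUFB2, a complex I subunit, changed by 0.02 (adjusted p = 0.85).

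Of 77 mitochondrial ribosomal protein genes 71 fell (median −0.50), and all 24 elongation factor and other TOP mRNAs fell (median −0.51), the nuclear importer IPO7 most, by 1.15. Of 36 proteasome subunits 35 fell, none by at least 2-fold (median −0.56); the lowest was PSMD5, an assembly chaperone, at −0.90. With library totals the medians of these 3 lists were 0.04, 0.04 and −0.01.

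**Figure D2:**
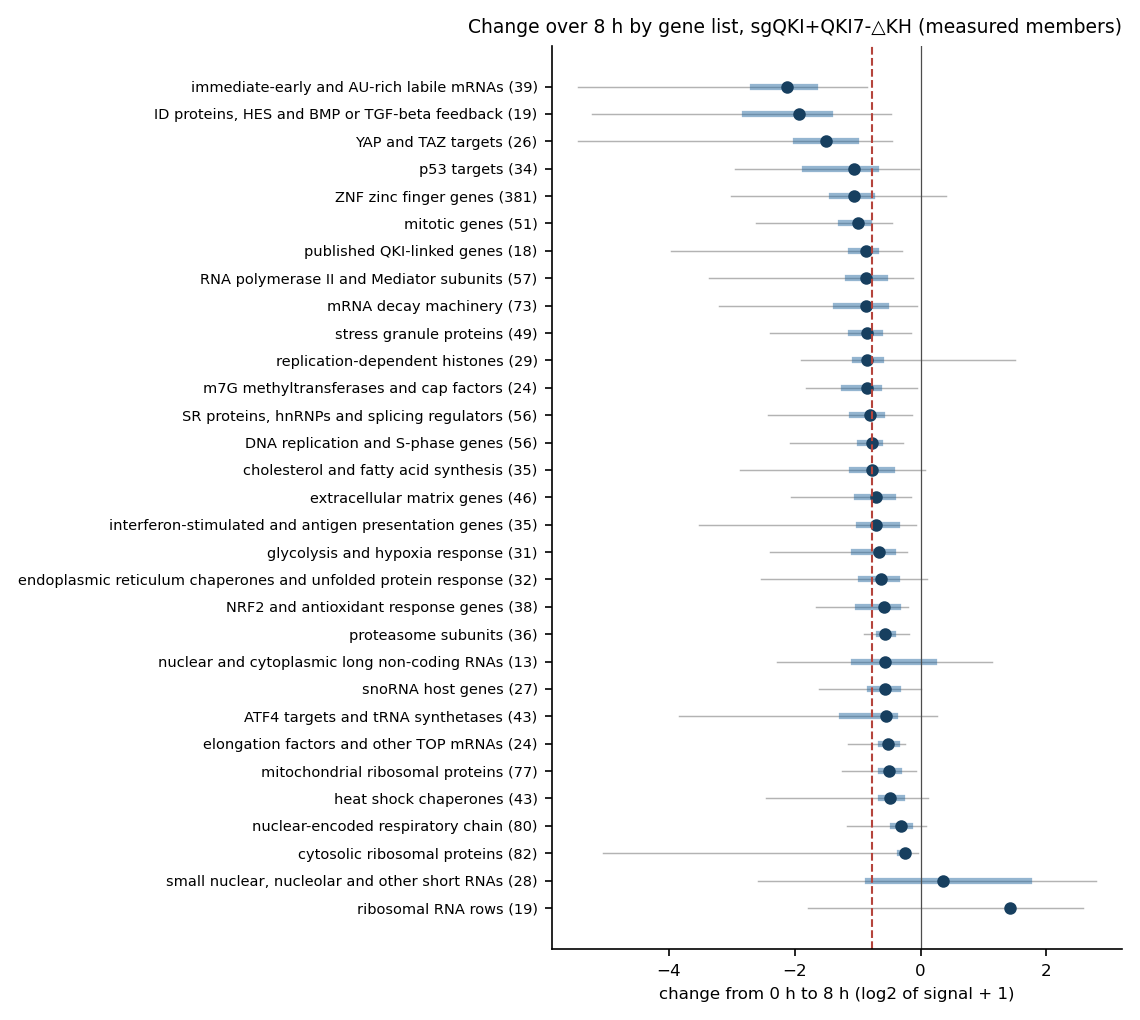
Change from 0 h to 8 h (log2 of signal + 1) for the gene lists with at least 10 measured members; circles are medians, thick bars the middle 50% of members, thin lines the full range, and numbers in brackets the measured members. The dashed line is the median over all genes, −0.77; the immediate-early list lies lowest, at −2.13, and among lists of protein-coding genes the cytosolic ribosomal proteins lie highest, at −0.25.

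With the spike-in scaling the median fall over genes was larger before 4 h than after it. Some long-lived lists fell mainly late. Of 82 cytosolic ribosomal protein genes 3 passed as lower by 4 h and 53 from 4 h to 8 h, with medians of −0.03 and −0.23. For elongation factor and other TOP mRNAs the medians were −0.15 and −0.35. From 0 h to 4 h a change passed for 74% of genes, with 9239 lower (73.6%) and 51 higher (0.406%) and a median of −0.48. The 51 became 14 without 0 h replicate 2, 25 without 4 h replicate 2, 31 without 4 h replicate 1 and 144 with the compared groups only. From 4 h to 8 h it passed for 58.7%, with 7305 lower (58.2%) and 58 higher (0.462%) and a median of −0.30, and without 8 h replicate 1 the count fell from 7363 to 4501. Scaled to library totals the later interval had 595 higher and 1563 lower genes, and after quantile normalisation 967 and 1510; for the earlier interval these were 971 and 6474, and 3531 and 3040. These 2 intervals share the 4 h libraries, and each shares libraries with the 8 h comparison. A fall of at least 2-fold was called for 1281 genes by 4 h (10.2%, against 0.0239% for a rise of that size) and for 75 from 4 h to 8 h (0.598%, against 0.0319%). In both intervals 5811 genes passed as lower, 3392 passed only before 4 h and 1487 only after.

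The bend was tested as the late change minus the early change. It passed for 14% of genes, above 0 for 1679 (13.4%), which slowed or turned, and below 0 for 74 (0.59%). Quantile normalisation gave 960 and 748, and library totals 3016 and 223. Of those that slowed, 464 had a mean below 5 at 8 h, and 1215 did not; with 0.1 added in place of 1 before the logarithm the counts were 1450 and 71. The count rests on few libraries: without 4 h replicate 1 it was 494 and 4, without 4 h replicate 2 it was 452 and 2, without 0 h replicate 1 it was 873 and 64, without 8 h replicate 2 it was 781 and 30, and with only the 3 compared groups it was 3057 and 723. The 5 genes with the largest slowing were CYR61 (late minus early 4.86), DDIT4 (4.35), NFKBIA (4.11), ID1 (3.91) and ID2 (3.64). DDIT4 read 107 and 103 at 0 h, 5.34 and 5.08 at 4 h, and 6.89 and 5.99 at 8 h, so it was higher at 8 h than at 4 h (0.26, adjusted p = 0.028).

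Slowing was frequent among the immediate-early mRNAs, with 30 of 39 called, and among p53 targets, with 21 of 34, against 13.4% of all genes. It was called for 1 of 82 cytosolic ribosomal proteins, 2 of 51 mitotic genes and none of 56 replication genes in limma. NORAD, an abundant cytoplasmic long non-coding RNA that binds Pumilio proteins, read 227 and 224 at 0 h, 49.4 and 48.2 at 4 h, and 44.96 and 46.2 at 8 h. It fell by 2.18 by 4 h, and its later change of −0.10 did not pass (adjusted p = 0.28). TUG1, a mainly nuclear long non-coding RNA, fell by 0.92 and then by 0.33.

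Other mRNAs fell steadily or faster late. LDHA read 1714 and 1644 at 0 h, 1025 and 1027 at 4 h, and 426 and 444 at 8 h. Its early fall of 0.71 was followed by a fall of 1.24, and the bend of −0.53 passed (adjusted p = 0.014). HSPA5 read 443 and 417, then 185.5 and 192, then 71.7 and 74.8, with falls of 1.18 and 1.35 and no bend past the threshold (−0.17, adjusted p = 0.36). SLC2A1 fell by 1.00 and then by 1.39 (bend −0.39, adjusted p = 0.057). The bends of CTGF (−0.35, adjusted p = 0.093) and ANKRD1 (−0.32, adjusted p = 0.12) did not pass either.

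Among the lowest bends were those of RNA5-8S5, a ribosomal RNA, the read-through transcript NME1-NME2, and POP3. POP3 read 8.33 and 6.63 at 0 h, 6.98 and 9.49 at 4 h, and 2.29 and 2.22 at 8 h, so its fall came after 4 h. NME1-NME2 read 97.1 and 89.6, then 126 and 126, then 61.3 and 44.2, and its 8 h change of −0.83 did not pass without 8 h replicate 2 (−0.60) or without 0 h replicate 1 (−0.77). How its reads were divided from those of NME1 and NME2 is not given in the sources used here.

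**Figure D3:**
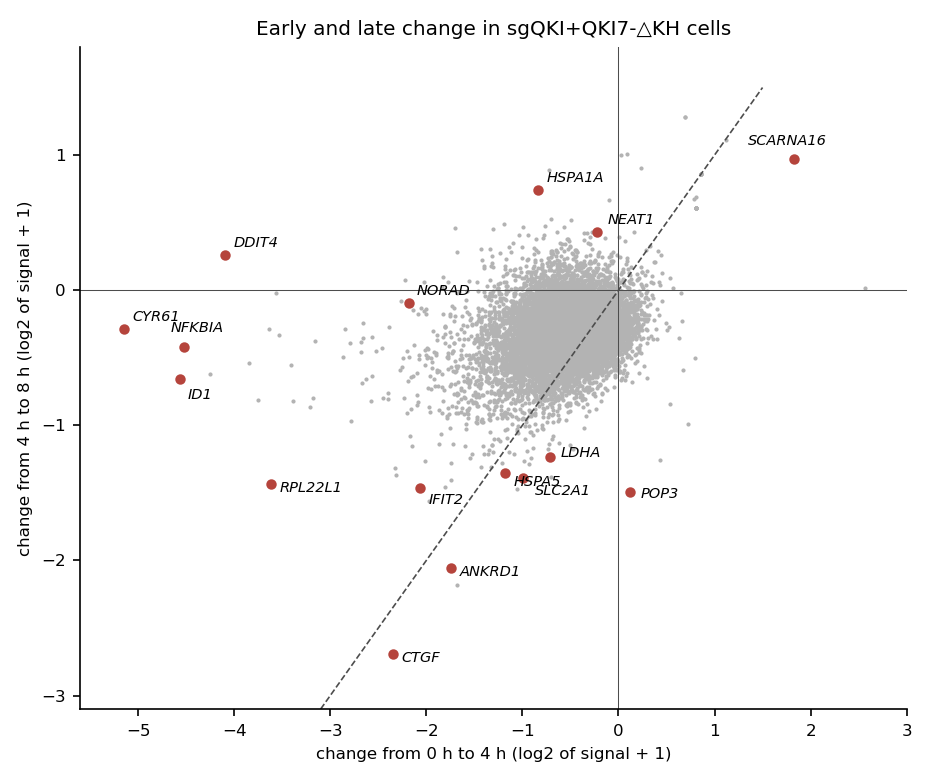
Change from 4 h to 8 h (vertical) against change from 0 h to 4 h (horizontal), both as log2 of signal + 1, for all 12547 genes (grey) and 16 named ones (red); the dashed line marks equal change in both intervals. Both axes share the 4 h libraries. CYR61, ID1, NFKBIA and DDIT4 lie far to the left, with late changes much smaller than their early ones. CTGF, ANKRD1, HSPA5 and LDHA lie on or below the dashed line.

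Among heat shock chaperone mRNAs, HSPA1A and HSPH1 fell by 4 h and then rose, HSPH1 only in part. Of 43 members 35 were lower at 8 h (median −0.48, but 0.07 and 0.11 with the other scalings), and 3 passed as higher from 4 h to 8 h, against 0.462% of all genes. HSPA1A, the inducible HSP70, read 395 and 361 at 0 h, 206 and 216 at 4 h, and 346 and 360 at 8 h. It fell by 0.84 by 4 h and then rose by 0.74 (adjusted p = 1.4e-06), and its 8 h change of −0.10 did not pass (adjusted p = 0.29). HSPA1A has a near-identical copy, HSPA1B, not analysed here, with which its reads could be shared, so its level is uncertain. HSPH1, an HSP110 co-chaperone, fell by 0.54 and then rose by 0.24 (adjusted p = 0.0069). DNAJB1, an HSP40 co-chaperone, fell in both intervals, by 1.47 and 0.98. HSPA1A and HSPH1, like the U1, U2 and VIM rows, were chosen after their values were seen.

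In all, 58 genes were higher at 8 h than at 4 h, 14 of them short or ribosomal RNAs, and 36 had passed as lower by 4 h. The 58 became 20 without 8 h replicate 2, 35 without 8 h replicate 1, 31 without 4 h replicate 1, 28 without 4 h replicate 2 and 129 with the compared groups only. NEAT1, the long non-coding RNA that builds paraspeckles, was one of them. It read 76.8 and 77.3 at 0 h, 66.2 and 65.6 at 4 h, and 86.4 and 92.1 at 8 h. Its 8 h libraries were above both earlier times, with a change of 0.21 from 0 h (adjusted p = 0.0027) and 0.43 from 4 h (adjusted p = 7.8e-06).

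Of the 61 genes higher at 8 h than at 0 h, 29 were short or ribosomal RNA rows, of which 10 had distinct values, and RNVU1-18, a U1 row, was counted outside these 29. Without 0 h replicate 2 the 61 became 33, and the ribosomal RNA rows among them went from 17 to 1. Few values were distinct because 16 rows of 5S RNA carried 1 set of values. RNVU1-18 shared its values with the RNU1 rows, so that 5 rows are 1 measurement of U1 small nuclear RNA. U1 (RNU1-1) read 57.5 and 30.9 at 0 h, 84.7 and 70.7 at 4 h, and 123 and 163 at 8 h, a change of 1.72 (SE 0.25, adjusted p = 1.9e-06). U2 (RNU2-1) read 71.7 and 31.7 at 0 h and 87.6 and 122 at 8 h, a change of 1.10 that did not pass without 0 h replicate 2 (0.52). SCARNA16, a small Cajal body RNA, changed by 2.79, SNORD3A, the U3 small nucleolar RNA, by 2.22, and 5S RNA (RNA5S1) by 1.42, or 0.79 and not past the threshold without 0 h replicate 2. RNA18S5 moved the other way, from 127972 and 57539 at 0 h to 24519 and 25371 at 8 h. RNA5-8S5 rose from 1805 and 1037 to 7418 and 9069. These RNAs lack the polyA tail that the library selects, and the part of carry-over in their values was not tested.

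Outside the short RNAs and RNVU1-18, HIST1H4C, a replication-dependent histone gene, was the only gene higher by at least 2-fold. It read 4.67 and 2.30 at 0 h, 6.47 and 6.72 at 4 h, and 13.0 and 9.71 at 8 h (1.501, SE 0.32, adjusted p = 0.00018), against 24 of 29 histone genes that fell. HIST2H2BE and HIST1H2BD, which fell by 1.91 and 1.66, led those. Smaller rises followed: OSBPL7, an oxysterol-binding protein, changed by 0.70, RHPN1 by 0.65, ARHGAP33, a GTPase-activating protein, by 0.63, PABPC1L, a poly(A)-binding protein paralog, by 0.59 and HDAC10, a deacetylase, by 0.58. HDAC10 read 6.07 and 3.50 at 0 h and 7.20 and 7.71 at 8 h, and did not pass without 0 h replicate 2 (0.26).

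Features that the comparison did not use were then set beside the change over 8 h, across 11573 genes with a coding transcript. These are correlations across genes, which are not independent and share the same 4 libraries, so they describe and carry no p-value. Spearman's rank correlation was −0.44 for 3′ UTR length, −0.43 for the number of ATTTA pentamers, −0.37 for Pumilio elements (TGTANATA), −0.30 for TATTTAT, −0.30 for coding length, −0.29 for QKI response element cores and 0.25 for GC at the last codon position. It was −0.01 for exon number. For 3′ UTR length it was −0.48 with the early change and −0.11 with the late change.

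Genes were put in 4 classes of 3′ UTR length of nearly equal size. From the shortest (up to 451 bases) to the longest (from 2415 bases) the median change went from −0.49 to −0.69, −0.86 and −1.02, and the share that fell at least 2-fold from 13.4% to 52.0%. Longer 3′ UTRs also hold more motifs (rank correlation 0.57 between length and QKI cores), so motifs were counted within classes. In the class from 452 to 1123 bases, genes with no Pumilio element had a median of −0.65, those with 1 had −0.95, and the 85 genes with 2 or more had −1.28. In the same class the medians were −0.68, −0.76 and −0.82 for 0, 1 and 2 or more heptamers, and −0.68, −0.79 and −0.82 for QKI cores. From 1124 to 2414 bases they were −0.80, −0.97 and −1.24 for Pumilio elements, −0.81, −0.92 and −1.06 for heptamers, and −0.84, −0.88 and −0.93 for QKI cores. In the longest class they were −0.92, −1.05 and −1.16 for Pumilio elements and −0.94, −1.02 and −1.07 for heptamers. For QKI cores in the longest class they were −0.93 without a core, −1.05 with 1 and −1.05 with 2 or more. The median lengths of these genes were 3270, 3485 and 4515 bases, so length still differed within a class. In the longest class length differed for Pumilio elements as well, at 3424.5, 3846.5 and 4723 bases. For heptamers it was 3358, 3606.5 and 4530.5 bases. The genes with 1 exon had a median of −1.11 and those with 4 or more exons −0.75.

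**Figure D4:**
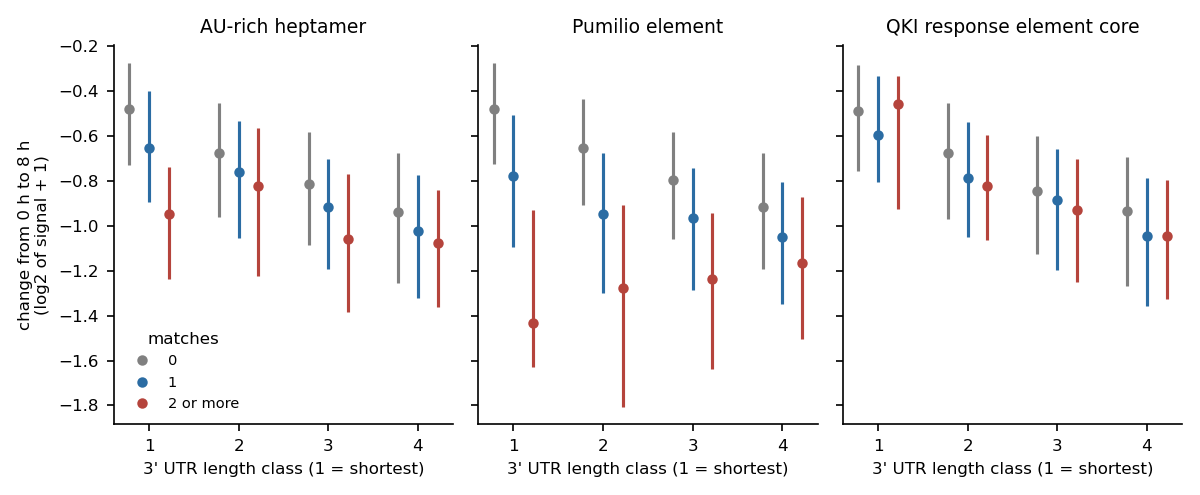
Median change from 0 h to 8 h (log2 of signal + 1) by 3′ UTR length class and by the number of motif matches in the 3′ UTR; circles are medians over genes and bars the middle 50%. In each class genes with 2 or more Pumilio elements lie lowest; the cells with 2 or more matches in the shortest class hold only 19, 24 and 12 genes for the 3 motifs.

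Of the 12 mRNAs lost most, several held TATTTAT in the chosen transcript: CYR61, NFKBIA, ID2 and CDKN1B had 2 matches each, IER3 and IER5 had 4 each, and AMD1 had 1. ANKRD1, which fell steadily, held 3. CTGF, ID1, RPL22L1, SERTAD3 and EFNA4 held none. The immediate-early and AU-rich list was drawn up partly for such elements, so its share of 74.4% with the heptamer is no finding. Among YAP and TAZ targets 73.1% held it, against 33.0% of all genes and 9.76% of cytosolic ribosomal proteins. A QKI core was held by 30.8%, 53.8% and 17.1% of these 3 lists, against 34.6% of all genes. Their median 3′ UTR lengths were 1234, 1834.5 and 146 bases, against 1123 over all genes, so these shares are not separated from length. CYR61 was in both the immediate-early and the YAP and TAZ list.

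The comparison with sgQKI+EV asked whether adding QKI7-△KH altered the loss, and that with sgQKI+QKI7-WT whether the KH domain did. Across 12547 genes the 8 h changes, which share no library, correlated with Pearson's r of 0.950 with sgQKI+EV, 0.967 with sgQKI+QKI7-WT and 0.936 with sgNS+EV. The median changes were −0.82, −0.77 and −0.70, against −0.77 in sgQKI+QKI7-△KH. In limma no gene passed as a decay difference against sgQKI+EV (0% called) or against sgQKI+QKI7-WT (0% called). At an unadjusted p under 0.05 there were 323 against sgQKI+EV (2.57%), 265 higher (2.11%) and 58 lower (0.462%), and 120 against sgQKI+QKI7-WT (0.956%), 59 higher (0.47%) and 61 lower (0.486%). The lowest adjusted p was 0.17 against sgQKI+EV. The 95% intervals lay within 2-fold in both directions for 99.2% of the 10636 genes with a mean of at least 5 against sgQKI+EV, and for 99.2% against sgQKI+QKI7-WT. A 2-fold bound is wider than the median change of −0.77, so it does not show that decay was alike. The median half-width of the intervals was 0.29 on the log2 scale for these genes in both comparisons.

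For QKI the decay difference was 0.18 against sgQKI+EV (95% interval −0.24 to 0.61) and 0.12 against sgQKI+QKI7-WT (−0.30 to 0.54). For CDKN1B it was 0.02 (−0.40 to 0.45) and −0.17 (−0.59 to 0.25). The median over all genes was 0.07 against sgQKI+EV, from 0.014 to 0.12 with 1 library left out (lowest without sgQKI+QKI7-△KH 0 h replicate 2, highest without its replicate 1) and 0.0022 after quantile normalisation. It was 0.13 for the immediate-early list, 0.18 for YAP and TAZ targets and 0.06 for the published QKI-linked list. Against sgQKI+QKI7-WT the medians were −0.0018 over all genes, 0.010 for the immediate-early list and 0.025 for YAP and TAZ targets.

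Other settings added calls, many of them among U1, U2 and 5S rows. A fit on the 4 compared groups alone called 44 genes against sgQKI+EV, 27 of them short or ribosomal RNAs and 25 of the 44 with distinct values, and leaving out sgQKI+QKI7-△KH 0 h replicate 1 called 22, all of them such rows with 3 distinct sets of values. The U1 signal at 8 h was 324% of that at 0 h in sgQKI+QKI7-△KH and 97.0% in sgQKI+EV, with a decay difference of 1.74 (95% interval 1.00 to 2.49, adjusted p = 0.17). For U2 it was 2.17 (1.28 to 3.05). At 0 h U1 was at 44.2 ± 18.8 in sgQKI+QKI7-△KH and 97.2 ± 31.7 in sgQKI+EV (SD, n = 2).

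**Figure D5:**
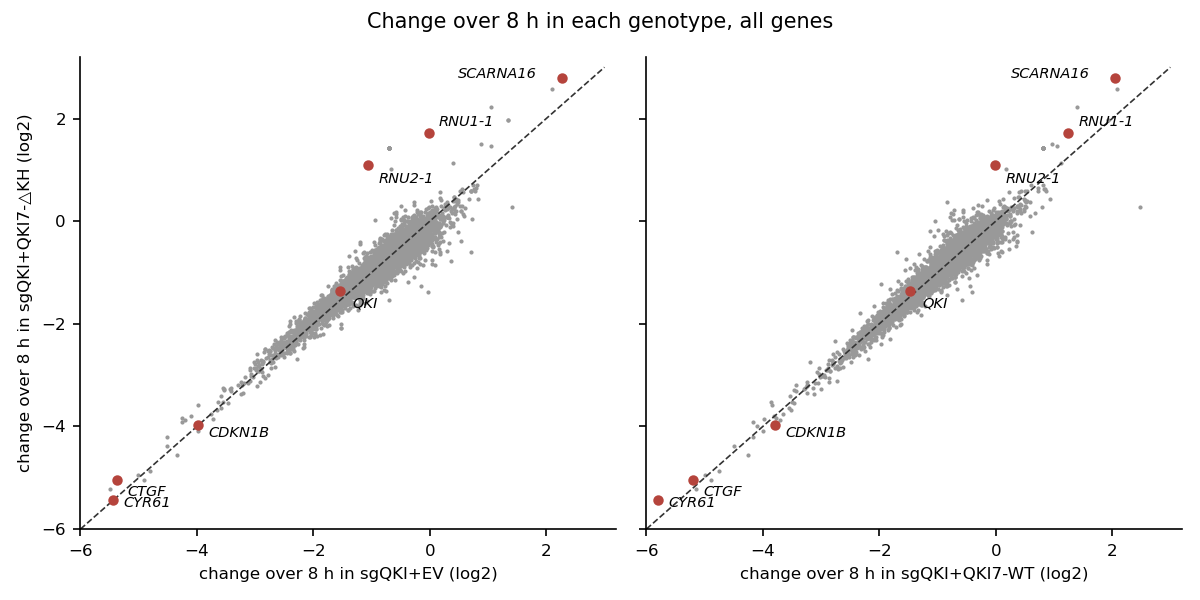
Change over 8 h in sgQKI+QKI7-△KH (vertical) against that in sgQKI+EV (left) and sgQKI+QKI7-WT (right), log2 of signal + 1, for all 12547 genes (grey) with 7 named genes in red; the dashed line marks equal change. mRNAs lie along the line in both panels (r = 0.950 and 0.967), and U1 and U2 (RNU1-1, RNU2-1) lie above it, farther against sgQKI+EV.

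At 4 h the picture against sgQKI+QKI7-WT differed; this comparison was added after the 8 h results were seen. The change from 0 h to 4 h was lower in sgQKI+QKI7-△KH than in sgQKI+QKI7-WT for 2004 genes (16%) and higher for 8 (0.0638%), 2012 in all (16%; 37.7% at an unadjusted p under 0.05), with a median difference of −0.24. Against sgQKI+EV no gene passed in limma (0% called; 219, or 1.75%, at an unadjusted p under 0.05; 25 with the 4 compared groups alone), with a median of −0.07. QKI was at 23.7 ± 1.52 at 4 h in sgQKI+QKI7-△KH, 16.2 ± 1.27 in sgQKI+EV and 41.7 ± 12.5 in sgQKI+QKI7-WT (SD, n = 2), and its early difference from the last was −0.65 (adjusted p = 0.041). CDKN1B was at 4.58 ± 0.32, 4.44 ± 0.19 and 6.91 ± 2.07, with an early difference of −0.58 that did not pass (adjusted p = 0.053). NORAD was at 48.8 ± 0.89, 47.6 ± 0.12 and 61.1 ± 7.78, with −0.47 (adjusted p = 0.029). These 3 genes were chosen after their values were seen, and their differences are given with the spike-in scaling only.

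The sgQKI+QKI7-WT libraries had endogenous sums of 1137100 and 1183410 at 0 h and 1137890 and 1089590 at 4 h. In sgQKI+QKI7-△KH the sums were 1367860 and 1206040 at 0 h and 1039350 and 1058560 at 4 h. The sgQKI+QKI7-WT libraries at 4 h correlated with each other at r = 0.9889, the lowest of the 12 groups. The part of these libraries in the result was not tested. The median difference over all genes was 0.0022 with library totals and −0.0050 after quantile normalisation. The count of 2012 was 0 with library totals, after quantile normalisation and with the 4 compared groups alone. It was also 0 without any 1 of 6 libraries: either sgQKI+QKI7-△KH replicate at 0 h or 4 h, sgQKI+QKI7-WT 4 h replicate 1 or sgQKI+QKI7-WT 0 h replicate 2. Without sgQKI+QKI7-WT 4 h replicate 2 it was 5292.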

How the data were processed

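The deposited table holds 1 signal value per gene and library, made by the authors and scaled so that the ERCC spike-in rows sum to nearly the same total in each library, as read from the values. STAR, RSEM and the GRCh38 build are named per the submitters' processing notes; the unit before scaling, the amount of spike-in per cell and the read depth are not given in the sources used here, so no counting interval is printed. Groups and replicate numbers came from the titles. ERCC rows were left out.

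Values were tested on log2(signal + 1) with limma 3.58.1 in R 4.3.3 (12 group means over 24 libraries, empirical Bayes with a mean trend, two-sided, Benjamini-Hochberg over 12547 genes, threshold 0.05), after the script was tested on simulated data. Residual degrees of freedom were 12. Late minus early is the change from 4 h to 8 h minus that from 0 h to 4 h, and a decay difference is the 8 h change in sgQKI+QKI7-△KH minus that in another genotype. Half-lives assume exponential loss of signal + 1. Python 3.11.15, pandas 2.3.3 and SciPy 1.17.1 made the summaries. GENCODE 29 matched 11958 genes by symbol and 294 by an older symbol, and 295 were unmatched.

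Named genes are QKI, the 12 highest and 12 lowest 8 h changes that passed (mean of at least 5, same sign in both replicates, short and ribosomal RNAs aside), the 5 highest and 5 lowest late minus early values that passed, and in each list up to 3 members with the largest change and the 1 with the smallest. Some items given by the rule are not reported here. The same rule gave no gene for the decay differences. The comparison, the lists and the members were chosen with earlier results of these data known. Of 36 lists, mitochondrially encoded mRNAs had no measured member. Alternatives were library totals without ribosomal RNA, quantile normalisation, a pseudocount of 0.1, a mean of at least 5, a replicate block, the compared groups only, a fold limit and leaving out each library.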

Additional observations from a re-analysis of the deposited data

Results flagged for a closer look

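The loss by 4 h differed between sgQKI+QKI7-△KH and sgQKI+QKI7-WT for 2012 genes in limma, by a test of the difference between the 2 changes, and this is what drew attention to it. The change was lower in sgQKI+QKI7-△KH for 2004 of them, with a median over all genes of −0.24. That median was 0.0022 with library totals and −0.0050 after quantile normalisation. No gene passed for the same difference at 8 h, where 120 had an unadjusted p under 0.05. The 4 h count was 0 with library totals, with quantile normalisation and with the compared groups alone, and between 0 and 5292 when 1 library was left out. The comparison at 4 h was chosen after seeing the data.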

How the results depend on the processing

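The number of genes past the threshold over 8 h stayed within 1.5 times of 11432 under every alternative except the added fold limit of 2 (3890), and from 0 h to 4 h the same held for 9290 (1284 with the fold limit). The directions did not stay alike. With library totals 1453 of 8064 genes were higher over 8 h and 971 of 7445 by 4 h. After quantile normalisation 4291 of 7877 were higher over 8 h and 3531 of 6571 by 4 h. The remaining totals came from fits that kept the spike-in scaling. Those totals are nearly all falls: with 1 library left out the genes called higher ranged from 33 to 74 over 8 h, 14 to 75 by 4 h and 20 to 35 after 4 h. From 4 h to 8 h the count of 7363 became 2158 with library totals, 2477 after quantile normalisation, 79 with the fold limit, and 4501 to 6939 with 1 library left out. Late minus early (1753) became 3239 with library totals, 3780 with the compared groups only, and 454 to 1712 with 1 library left out. The decay difference from sgQKI+EV (0) became 44 with the compared groups only and 0 to 22 with 1 library left out; that from sgQKI+QKI7-WT was 0 throughout. At 4 h, chosen after seeing the data, the difference from sgQKI+EV (0) became 25 with the compared groups only and 0 to 1 with 1 library left out. That from sgQKI+QKI7-WT (2012) became 0 with library totals, 0 after quantile normalisation, 0 with the compared groups only, and 0 to 5292 with 1 library left out.

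With library totals the 8 h change turned positive for BAX (0.53), RPLP2 (0.52), HSPA1A (0.45), HSPH1 (0.24), MT2A (0.36), TXN (0.35) and VIM (0.10). After quantile normalisation it did for HEY1 (0.42), BAX (0.57), RPLP2 (0.29), HSPA1A (0.44), HSPH1 (0.38), MT2A (0.18), TXN (0.42), EPCAM (0.12) and RBFOX3 (0.14). With 1 library left out BAX ranged from −0.092 to 0.051, RPLP2 from −0.098 to 0.032 and NDUFB2 from −0.066 to 0.11. The cause was not tested.

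Replicate numbers did not pair the libraries: across genes, the replicate differences at 2 times correlated at −0.13, −0.078 and 0.0064. With the replicate block the counts were 11440 over 8 h, 9311 by 4 h, 7538 after 4 h and 2015 for late minus early, 0 for both decay differences, and 2749 for the 4 h difference from sgQKI+QKI7-WT. Read depth is unknown, and 2 libraries per group limit what a decay difference can show.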
